A study of Arabidopsis thaliana with 22 samples.

Results

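SWEET genes encode sugar carriers of plant membranes, and their transcript levels were followed here in leaves of Arabidopsis thaliana through a day. Members were the Affymetrix ATH1 probe sets (groups of short oligonucleotides that measure 1 transcript) that the annotation ties to a single gene with SWEET and a number as its symbol, and whose mean intensity over all 22 arrays was at least 20. The rule gave 10 members, SWEET1, SWEET2, SWEET3, SWEET4, SWEET6, SWEET8, SWEET11, SWEET13, SWEET16 and SWEET17, among 13350 genes with a probe set of their own and 22746 probe sets without controls. All plants were wild-type Col-0 on compost in a growth room under 12 h of light and 12 h of dark, at growth stage 3.90, with no treatment or mutant. Leaves were sampled at 0, 1, 2, 4, 8, 12, 13, 14, 16, 20 and 24 h. Each hour has 2 arrays, from biological replicates of 20 pooled plants, called series 1 and series 2 here after their replicate numbers.

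SWEET proteins let sugars pass a membrane in either direction down their concentration gradient, without coupling to protons. Plant SWEETs fall into 4 clades, where members of clades I and II mostly carry glucose and other hexoses, those of clade III mostly carry sucrose, and those of clade IV sit in the vacuolar membrane. In leaves SWEET11, together with SWEET12, is known for releasing sucrose from phloem parenchyma cells, from where proton-coupled SUC2 loads it into the veins for export. Vacuoles of leaf cells store sugars over the day, and SWEET17 is known as a carrier that moves fructose across their membrane.

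Whether light or dark came first is not spelled out in the labels. The titles of series 1 carry numbers that run from 21 at 0 h over 1 at 4 h and 8 at 12 h to 21 at 24 h, and the age tags read 5 h for both 8 h arrays and 14 h for both 16 h arrays. As a marker of the hour, GI (GIGANTEA), a clock gene whose transcript is known to be high towards the end of the light period, was highest at 20 h, with 601.7 in series 2 and 711.7 in series 1. Its mean was 14.6, 8.65 and 11.1 at 4, 8 and 12 h, and 439 and 502 at 0 and 24 h. By this marker the samplings after 12 h would fall in the light part, which the labels do not state. Array medians were 37.6 to 44.7 on the intensity scale, which the authors set to a trimmed mean of 100 on each array. The ratio of the actin signal at the 3' end to that at the 5' end, a measure of RNA and labelling quality, was 2.35 to 6.31 in series 2 and 1.56 to 2.52 in series 1, and highest at 1, 24 and 12 h of series 2. Of the leaf mesophyll markers 4 of 8 could be measured, with a summed intensity of 7820 to 18636 over the arrays. The root markers PYK10 and EXPA7, 2 of 7, summed to 16.3 to 36.7. No marker of phloem, epidermis, or flower and pollen had a probe set tied to it alone in the annotation used (0 of 6, 0 of 4 and 0 of 6). The share of these cells was thus not followed. That annotation left 8730 of the 22746 probe sets without a gene name, so the array may still carry such genes. With whole leaves, fewer cells of a type and less RNA per cell cannot be told apart.

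Of the members 6 were brighter on most arrays than every bacterial control probe set, for which leaves have no matching transcript. Values of the 27 such probe sets centred on 2.0 (median) and reached 29.2 at most. SWEET11 had 430.5, 803.6 and 1113 as its lowest, median and highest intensity over the 22 arrays. SWEET17 had 80.8, 238 and 525.8, and SWEET1, a plasma membrane glucose carrier, had 161, 224 and 378.1. SWEET2, a clade I carrier of the vacuolar membrane known from roots, had 51.1, 151 and 713.8. These members lay above 29.2 on all 22 arrays. SWEET13, a clade III carrier of sucrose and gibberellin, had 23.5, 55.3 and 152.1 and lay above 29.2 on 18 arrays. SWEET4, a hexose carrier of clade II, had 26.2, 46.5 and 97.7 and lay above it on 20.

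The remaining 4 members were dim. SWEET3 (7.9 to 35.5), SWEET6 (12.9 to 48.5), SWEET8 (12.0 to 32.4) and SWEET16 (17 to 38.3) lay above 29.2 on 5, 4, 2 and 4 arrays. SWEET8, required for the pollen wall, and SWEET3 were the members just inside the threshold, with means of 20.6 and 21.5. Another 4 genes fell below it, SWEET9 of nectaries (mean 17.8), SWEET14 (14.7), SWEET10 (14.2) and SWEET7 (12.9). SWEET12 was not analysed here, since the annotation used tied no probe set to it alone. Intensities of different probe sets depend on their oligonucleotides, so these levels do not order the genes by transcript amount.

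**Figure D1:**
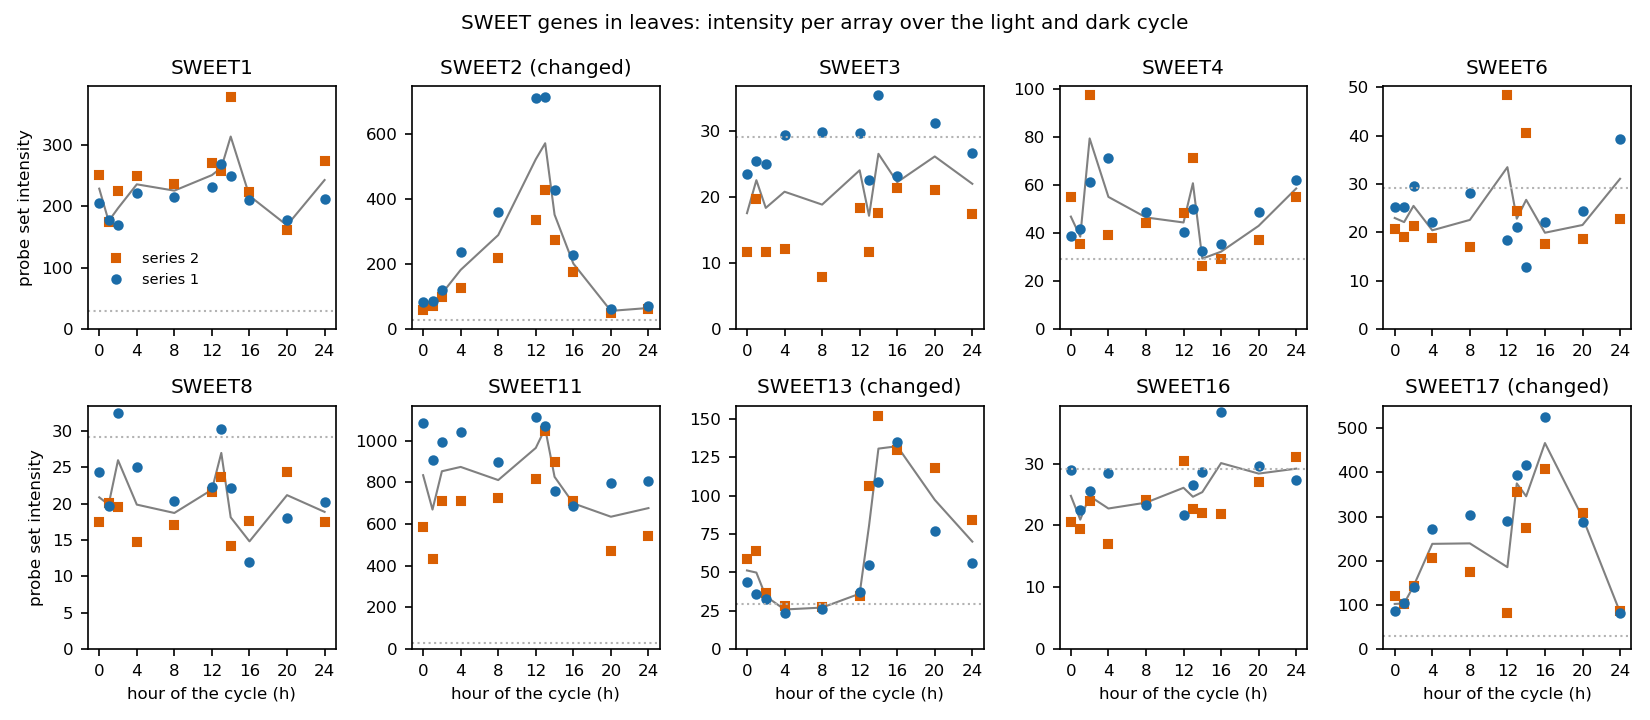
Intensity of the 10 SWEET members on each array (vertical axis, linear, from 0) by hour of the cycle (horizontal axis, h). Squares are series 2, circles are series 1, lines join the means of the 2 arrays, and the dotted line is the highest bacterial control, 29.2. SWEET2 formed a single rise to 13 h, SWEET13 was highest at 14 and 16 h, and SWEET17 at 16 h.

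Of the 10 members 3 changed over the 11 hours, namely SWEET2 (adjusted p = 2.54e-05), SWEET13 (adjusted p = 0.000229) and SWEET17 (adjusted p = 0.00172), by limma's moderated F test with Benjamini-Hochberg adjustment over all 14912 tested probe sets. Of all tested probe sets 24.8% passed, so 3 of 10 was near the background share. With the replicate number as a block, 5 members passed, against 41.3% of all probe sets, the additions being SWEET1 (adjusted p = 0.0140, against 0.0925 without the block) and SWEET4 (0.0346, against 0.0585). The median range of the hourly means was 0.81 log2 units over the members and 0.79 over all tested probe sets.

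SWEET2 had the widest course among the members. In series 2 its intensity was 58.4, 72.9, 98.7, 127.0, 218.0 and 334.2 at 0, 1, 2, 4, 8 and 12 h, then 428.5, 274.9, 175.3, 51.1 and 60.7 at 13, 14, 16, 20 and 24 h. In series 1 it was 83.2, 88.0, 120.3, 237.6, 360.5 and 709.9 up to 12 h, then 713.8, 428.9, 228.0, 61.7 and 69.9. Both series thus climbed at every sampling up to 12 h, had their highest value at 13 h and were lowest at 20 h. The 13 h level was not detectably above that of 12 h (0.18 ± 0.38 log2 units, SE, limma, adjusted p = 0.884). The mean intensity was 571 ± 202 at 13 h and 56.4 ± 7.50 at 20 h (SD, n = 2 each), a ratio of 10.1.

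Against 0 h, SWEET2 was higher at 12 h by 2.74 ± 0.38 on the log2 scale (SE; limma, adjusted p = 0.000139), where 14.3% of all probe sets passed. All comparisons with 0 h share the 0 h arrays, and all those with 12 h the 12 h arrays. It was the one member called at 8 h, by 1.95 ± 0.38 (adjusted p = 0.00686; 4.78% of all probe sets), and both arrays of each hour lay above both of 0 h. With the replicate block the 4 h arrays passed as well (1.27, adjusted p = 0.00243, against 0.142 without it; 3.82% of all probe sets with the block and 1.19% without), while no SWEET gene passed at 1 or 2 h with or without the block (1.57% and 1.05% of all probe sets without it). Against 12 h, SWEET2 fell by 3.03 ± 0.38 at 20 h (adjusted p = 4.97e-05; 14.6% of all probe sets) and fell by 2.83 ± 0.38 at 24 h (adjusted p = 0.000107; 14.3%). At 20 h it stood lower than at 16 h by a log2 difference of −1.76 ± 0.38 (mean 56.4 at 20 h and 202 at 16 h, adjusted p = 0.0108; 4.39% of all probe sets passed), in a comparison of neighbouring hours that was added after its values were seen. The 8 h call was lost without replicate 1 of 8 h (adjusted p = 0.102) or replicate 2 of 0 h (0.0778), and that of 20 h against 16 h without replicate 1 of 16 h (0.134) or without replicate 1 (0.0519) or replicate 2 (0.0855) of 20 h. A lower level at 16 h than at 12 h (−1.27, adjusted p = 0.0483; 9.1% of all probe sets) lost its call under 6 alternatives (adjusted p of 0.0509 to 0.0728) and without any of 13 single arrays (up to 0.363, without replicate 1 of 12 h).

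SWEET13 ran on another schedule, lowest at 4 and 8 h in both series and higher after 12 h than at 12 h. In series 2 its intensity was 58.8, 63.8, 36.4, 28.1, 27.7 and 34.9 at 0, 1, 2, 4, 8 and 12 h, then 106.3, 152.1, 129.5, 117.8 and 84.1 at 13, 14, 16, 20 and 24 h. In series 1 it was 43.7, 35.9, 32.5, 23.5, 26.4 and 37.3, then 54.6, 109.2, 134.9, 76.7 and 56.0. The 4 and 8 h arrays were under 29.2, and every array from 13 h on was above both arrays of 12 h. The mean was 132 ± 3.82 at 16 h and 25.8 ± 3.25 at 4 h (SD, n = 2 each). No ratio is given, since both 4 h arrays lay under the highest bacterial control value.

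Against 12 h, SWEET13 rose by 1.73 ± 0.32 at 14 h (adjusted p = 0.00307; 7.93% of all probe sets), by 1.76 ± 0.32 at 16 h (adjusted p = 0.00246) and by 1.31 ± 0.32 at 20 h (adjusted p = 0.0107). The replicate block added 13 h (1.00, adjusted p = 0.00877, against 0.0844 without it; 10.4% of all probe sets with the block and 5.26% without) and 24 h (0.86, adjusted p = 0.0116, against 0.0847; 23.3% with the block). Against 0 h no hour passed without the block, and with it SWEET13 was lower at 4 h (−0.88, adjusted p = 0.0397, against 0.255) and at 8 h (−0.82, adjusted p = 0.0290, against 0.182; 10.2% with the block), hours at which all 4 arrays were under 29.2. The 20 h call was lost without replicate 2 of 12 h (adjusted p = 0.0635) or of 20 h (0.118).

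SWEET17, of clade IV, was highest at 16 h and low at 24 h in both series, but the series took different paths up to 12 h. In series 2 its intensity was 119.1, 103.1, 143.2, 205.5, 174.0 and 81.9 at 0, 1, 2, 4, 8 and 12 h, then 356.6, 275.0, 407.0, 307.9 and 85.8 at 13, 14, 16, 20 and 24 h. In series 1 it was 85.3, 103.6, 141.5, 270.9, 304.6 and 289.0, then 393.4, 416.8, 525.8, 288.6 and 80.8. In series 2 its level at 12 h was the lowest of that series, followed by the 13 h value of 356.6, whereas in series 1 it stood between 270.9 and 525.8 from 4 to 20 h. The series were alike at 1 and 2 h and again at 13, 20 and 24 h, and most unlike at 12 h. The 12 h array of series 2 also had an actin ratio of 4.01, against 1.87 for that of series 1, and the part of this in the result was not tested. The mean was 466 ± 84.0 at 16 h and 83.3 ± 3.54 at 24 h (SD, n = 2 each), a ratio of 5.60.

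SWEET17 was higher at 16 h than at 12 h by 1.56 ± 0.41 (limma, adjusted p = 0.0251), and by 2.26 in series 2 and 0.85 in series 1 alone. This rise rested on the 12 h array of series 2: without it the difference was 0.67 (adjusted p = 0.282), and the call was also lost without replicate 1 (adjusted p = 0.193) or replicate 2 (0.0570) of 16 h. With the replicate block SWEET17 passed at 13 h (1.25, adjusted p = 0.0338, against 0.0949 without it) and 14 h (1.11, adjusted p = 0.0453, against 0.115; 15.5% of all probe sets with the block) over 12 h, and at 8 h over 0 h (1.16, adjusted p = 0.0499, against 0.132). The log2 difference of 24 h against 20 h was −1.79 in the mean, −1.80 in series 2 and −1.79 in series 1. It missed the threshold without the block (adjusted p = 0.0549; 0.805% of all probe sets passed) and passed with it (adjusted p = 0.0126; 2.27%), in another comparison added after its values were seen.

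**Figure D2:**
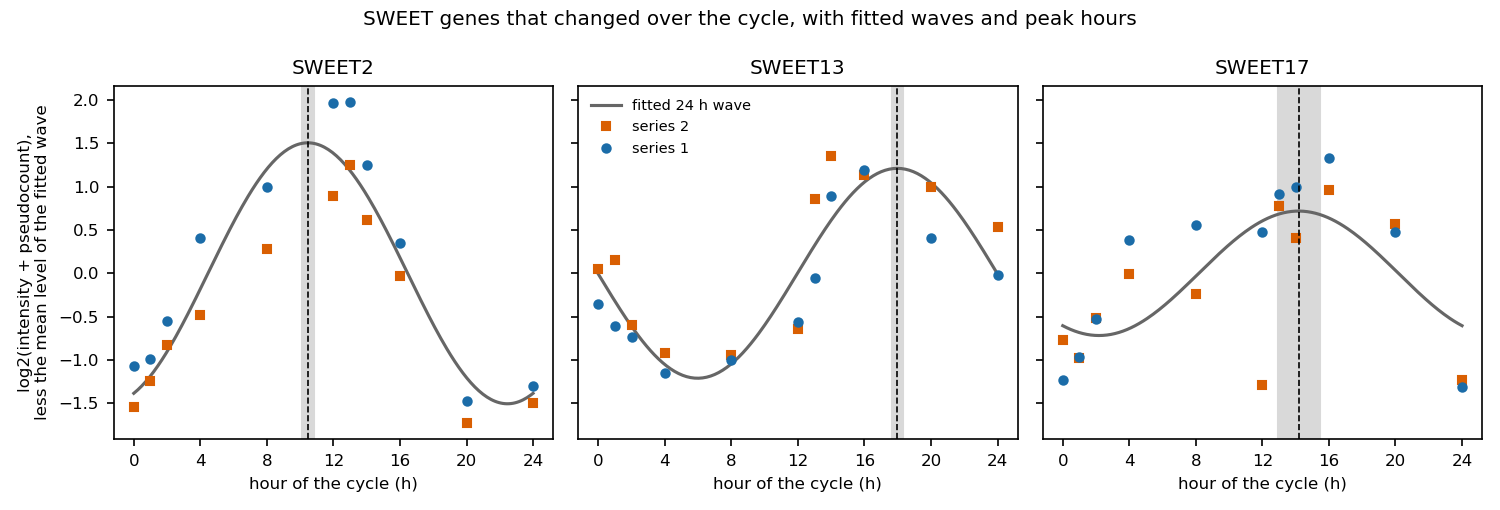
Log2(intensity + 4.01) of SWEET2, SWEET13 and SWEET17, less the mean level of the fitted wave (vertical axis), by hour of the cycle (horizontal axis, h). Squares are series 2, circles are series 1, the line is the fitted 24 h cosine, the dashed line is its peak hour and the grey band is ± 1 SE. The peaks lie at 10.5 h for SWEET2, 18.0 h for SWEET13 and 14.2 h for SWEET17, and the series 2 array of SWEET17 at 12 h lies far below the curve.

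The phase of each member was taken from a cosine of 24 h period fitted to all 22 arrays. A daily rhythm passed for 3 of the 10 members, against 33.5% of all tested probe sets. SWEET2 peaked at 10.5 ± 0.35 h (SE) with a trough-to-peak wave of 3.01 ± 0.26 log2 units (adjusted p = 7.31e-09). SWEET17 peaked at 14.2 ± 1.27 h with a wave of 1.44 ± 0.32 (adjusted p = 0.00406), and SWEET13 at 18.0 ± 0.33 h with a wave of 2.42 ± 0.29 (adjusted p = 2.54e-06). The series taken alone placed SWEET2 at 10.6 h in series 2 and 10.3 h in series 1, and SWEET13 at 18.2 and 17.8 h. SWEET17 was less certain, at 16.0 h in series 2 and 12.9 h in series 1. GI peaked at 20.1 ± 0.28 h in the same fit, after all 3 SWEET genes.

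A single cosine does not follow the shape of each course: SWEET2 was highest at 13 h in both series, later than its fitted peak. SWEET11 had a wave of 0.57 with a peak at 9.15 h that passed with the replicate block (adjusted p = 0.0440; 40.1% of all probe sets) and not without it (0.146). The remaining waves did not pass. Among them SWEET1 had a fitted peak at 10.7 ± 1.64 h with a wave of 0.40 ± 0.16, and SWEET4 one at 4.55 ± 1.52 h with a wave of 0.60 ± 0.25. For the dim SWEET3, SWEET16, SWEET8 and SWEET6 the SE of the peak hour was 2.06, 1.58, 4.02 and 13.4 h. The courses of the 3 rhythmic members over the 11 hourly means had a Pearson correlation of −0.01 between SWEET2 and SWEET13, 0.55 between SWEET2 and SWEET17 and 0.48 between SWEET13 and SWEET17, as a description of points that share their arrays.

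**Figure D3:**
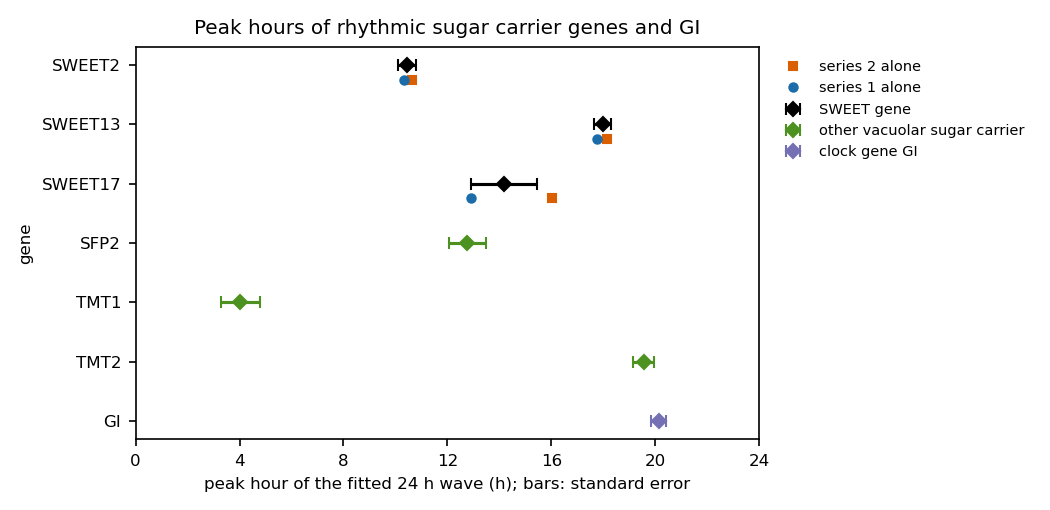
Peak hour of the fitted 24 h wave (horizontal axis, h) for each gene (vertical axis), with bars of ± 1 SE. Black diamonds are SWEET genes, green diamonds other vacuolar sugar carriers with a rhythm and the violet diamond the clock gene GI, and below each SWEET gene the square is series 2 alone and the circle series 1 alone. TMT1 stood earliest at 4.03 h, and TMT2 at 19.6 h and GI at 20.1 h stood latest.

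The mean of the 13 to 24 h samplings was set against that of the 1 to 12 h samplings to compare the 2 parts of the cycle. In the later part 2 members were higher and 0 were lower, where 10.3% of all tested probe sets were higher and 12% lower. SWEET13 had 54.6, 108 and 152.1 as its lowest, median and highest intensity at 13 to 24 h, against 23.5, 33.7 and 63.8 at 1 to 12 h. The groups overlapped only through the 1 h array of series 2 at 63.8, and the log2 difference was 1.43 ± 0.14 (limma, adjusted p = 2.88e-06), or 2.69-fold. SWEET17 had 80.8, 332 and 525.8 at 13 to 24 h, against 81.9, 159 and 304.6 at 1 to 12 h. Its arrays overlapped more widely, since both 24 h arrays were among the lowest of all. The log2 difference of SWEET17 was 0.70 ± 0.18 (adjusted p = 0.0109), 0.90 in series 2 and 0.50 in series 1, and it missed the threshold without the 8 h and 16 h arrays whose tags disagree (0.63, adjusted p = 0.0519).

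SWEET2 did not differ detectably between the parts (−0.10, 95% interval −0.47 to 0.26). The other 7 members had log2 differences of −0.22 for SWEET4 to 0.19 for SWEET16, none past the threshold. The narrowest interval among them was that of SWEET1, −0.07 to 0.32, and the widest that of SWEET3, −0.35 to 0.64.

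Among the members that did not pass the time course without the replicate block, SWEET11, SWEET1 and SWEET4 were the brighter ones relative to the bacterial controls. SWEET4 was still under 29.2 at 14 h (26.2) and 16 h (29.1) in series 2. SWEET11 averaged 1059 ± 15.5 at 13 h and 635 ± 231 at 20 h (SD, n = 2 each), its highest and lowest hours, with a series 2 range of 430.5 to 1048 and a series 1 range of 687.5 to 1113. SWEET1 averaged 313 ± 91.6 at 14 h and 169 ± 11.3 at 20 h, and with the replicate block it was lower at 20 h than at 12 h (−0.55, adjusted p = 0.0228, against 0.0851 without it; 22.4% of all probe sets with the block). SWEET4 averaged 79.5 ± 25.8 at 2 h and 29.4 ± 4.53 at 14 h. When both series were pooled, among the 10 pairs of hours next to each other in the order of means, the 2 arrays of 1 hour lay apart from those of the other in 0 pairs for SWEET1, 0 for SWEET4 and 1 for SWEET11. The same count was 2 for SWEET2, 2 for SWEET17 and 1 for SWEET13. Taken within each series, both series ran in the order of the means in 8 of the 10 pairs for SWEET2, 4 for SWEET13, 3 for SWEET17, 4 for SWEET4, 2 for SWEET1 and 2 for SWEET11. The order came from the means of these same arrays, and the counts were not taken over all probe sets. Both sets of counts are thus a description and no test of agreement between the series.

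None of the dim members passed the time course. SWEET3, SWEET6, SWEET8 and SWEET16 had time course adjusted p of 0.983, 0.986, 0.740 and 0.949. Their courses in series 2 and series 1 had Pearson correlations of 0.13, −0.61, 0.09 and −0.22 over the 11 hours, against 0.99 for SWEET2, 0.92 for SWEET13, 0.78 for SWEET17, 0.74 for SWEET1, 0.54 for SWEET4 and 0.23 for SWEET11. No change over the day was detected at these intensities, near the brightest bacterial control. In the fit without the replicate block, the SE of a difference between 2 hours was 0.28 for SWEET16, 0.30 for SWEET8, 0.44 for SWEET6 and 0.52 for SWEET3. It was 0.38 for SWEET2 and 0.41 for SWEET17. That fit counts a steady difference between the series as spread. Such a difference was −0.72 log2 units for SWEET3 and −0.53 for SWEET2 (series 2 minus series 1). The part of the low signal in these SEs was not tested.

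The series differed in level for some members. In the fit with the replicate block, SWEET2 was lower in series 2 than in series 1 by 0.53 log2 units (estimate −0.53 ± 0.08, limma, adjusted p = 0.000295) and was lower at 11 of 11 hours. SWEET3 was also lower at 11 of 11 hours (−0.72 ± 0.12, adjusted p = 0.000437), and 4.42% of all tested probe sets were lower in series 2 at every hour. All its series 2 values, 7.9 to 21.4, were under 29.2, so this is a difference in dim signal and its size as a difference in transcript level is not known. SWEET11 was lower at 9 of 11 hours (−0.44 ± 0.11, adjusted p = 0.00541), while SWEET13 was higher at 9 of 11 (0.36 ± 0.10, adjusted p = 0.00926). These 4 of 10 members stood against 35.2% of all probe sets that differed between the series. The actin ratios of the series differed as well, as given above, and their part in these differences was not tested.

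**Figure D4:**
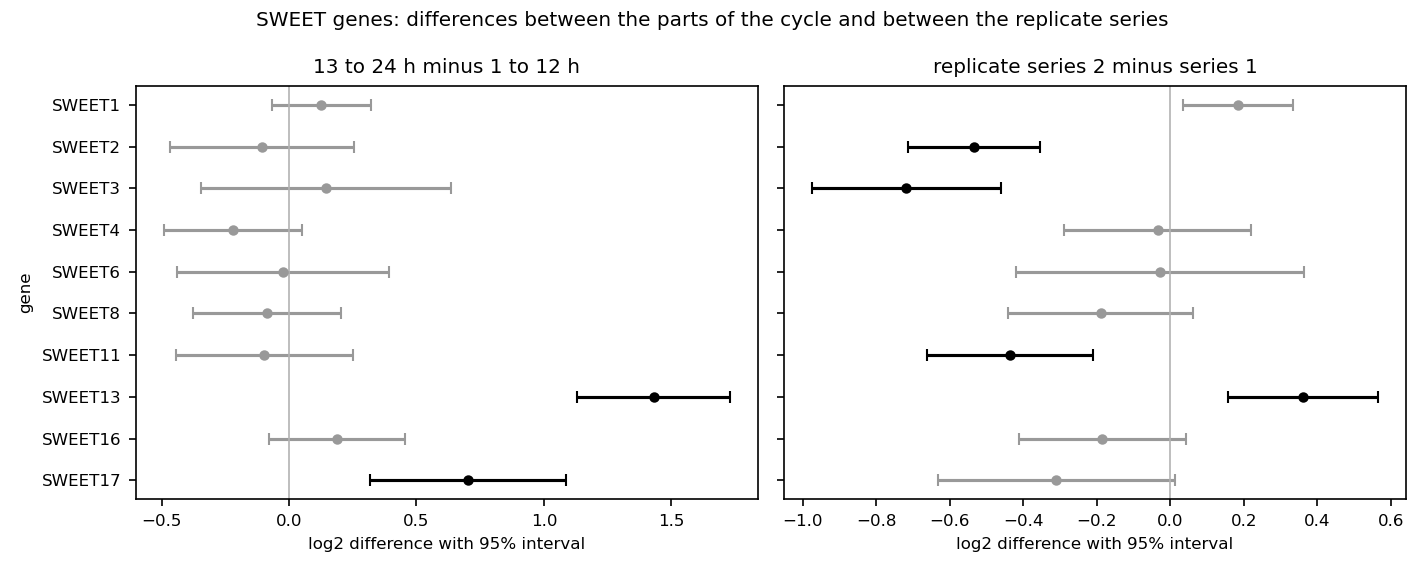
Log2 differences of the 10 SWEET members (vertical axis) with 95% intervals: on the left the mean of 13 to 24 h minus the mean of 1 to 12 h, on the right series 2 minus series 1 from the fit with the replicate block. Black points passed the test across all probe sets and grey points did not. SWEET13 (1.43) and SWEET17 (0.70) passed on the left, and SWEET2, SWEET3, SWEET11 and SWEET13 on the right.

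The same point of the cycle a day apart was compared as 24 h against 0 h. None of the 10 members passed, nor did any of the 14912 tested probe sets, 401 of which had an unadjusted limma p under 0.05, none of them a member. SWEET2 had 60.7 and 69.9 at 24 h and 58.4 and 83.2 at 0 h in series 2 and series 1, and SWEET17 had 85.8 and 80.8 at 24 h and 119.1 and 85.3 at 0 h. SWEET13 had 84.1 and 56.0 at 24 h and 58.8 and 43.7 at 0 h. For each of these genes the 24 h and 0 h arrays overlapped.

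For each rhythmic member the genes with the most similar course were sought among 5430 named genes with a mean of at least 50, by the Pearson correlation of the 11 hourly means. SWEET2 ran most like AAPT2, an aminoalcohol phosphotransferase of phospholipid synthesis (r = 0.98 in the mean, 0.98 in series 2 and 0.97 in series 1), which also had its top level at 13 h and its bottom level at 20 h. Next came AT1G64500 (0.97) and RALFL24, a RALF-like signalling peptide gene (0.97). SWEET13 ran most like DJ1D (0.97 in the mean, 0.92 in series 2 and 0.96 in series 1), AT3G29760 (0.97) and AT1G06690 (0.96), each highest at 16 h. SWEET17 ran most like SIR, the sulfite reductase (0.94 in the mean, 0.84 in series 2 and 0.94 in series 1), AT3G27110 (0.93) and AT3G23570 (0.91). These values were the highest of many, and describe 11 points that share their arrays. Of the 9 genes, 4 did not themselves pass the time course, AT1G06690 beside SWEET13 (adjusted p = 0.112) and SIR, AT3G27110 and AT3G23570 beside SWEET17 (0.139, 0.0797 and 0.510).

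Other carriers of the pathway could be followed only in part. Of 64 listed symbols of sugar transport and sucrose cleavage, 6 had a tested probe set that the annotation used tied to them alone. These were 5 of 8 for vacuolar carriers and 1 of 16 for cleavage enzymes. None were symporters of sucrose or hexoses, plastid carriers or polyol carriers. Some symbols, such as STP3 and SUS2, were not matched to a gene, and VAC-INV and BETAFRUCT4 name the same gene. The phloem loader SUC2 was not analysed here. Of the 6, 3 passed the time course and the rhythm, where 24.8% and 33.5% of all probe sets passed. TMT1, a tonoplast monosaccharide transporter that loads sugars into the vacuole, had 526.7 and 483.2 at 2 h and 112.7 and 155.3 at 14 h as the arrays of its highest and lowest hours, and was lower at 13 to 24 h than at 1 to 12 h (mean 265 and 461; −0.94 ± 0.11, limma, adjusted p = 2.07e-05). Its peak hour was 4.03 ± 0.76 h.

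TMT2 of the same family peaked in the other part of the cycle, at 19.6 ± 0.40 h. TMT2 averaged 216 ± 15.2 at 20 h and 49.8 ± 3.89 at 4 h (SD, n = 2 each). It was higher at 13 to 24 h than at 1 to 12 h (mean 134 and 82.6; 0.64 ± 0.13, adjusted p = 0.00265). SFP2, a sugar porter of the ERD6-like family, peaked at 12.8 ± 0.72 h with a wave of 0.94 ± 0.11 (adjusted p = 5.03e-06). SFP1 passed the time course with the replicate block (adjusted p = 0.0315) and not without it (0.657), and TMT3 and the cell wall invertase family gene CWINV6 passed in neither. The peak hours of these carriers, SFP2 counted as vacuolar by the list used here, and of SWEET2 and SWEET17 thus lay at 4.03 to 19.6 h. The ends of the cycle adjoin, so this range does not measure the distance between peaks.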

How the data were processed

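Leaf RNA was hybridised to 1-colour Affymetrix ATH1 arrays after biotin labelling, per the labels' protocols. The deposited table holds linear probe set intensity, scaled by the authors to a mean of 100 without the lowest and highest 2% on every array, as the values show. The sources used here do not give the software behind it. Arrays were grouped by the hour in the source names. The deposited intensities were put on a log2(value + 4.01) scale (10% of the median, 40.1, as pseudocount), which understates changes of low genes. All 14912 non-control probe sets with a mean of at least 20 were fitted with limma 3.58.1 in R 4.3.3 (lmFit, eBayes with trend), with 1 mean per hour and 11 residual degrees of freedom. Tests were two-sided, p was adjusted by Benjamini-Hochberg and 0.05 was the threshold. The code was tested on simulated data.

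Genes were named from the platform annotation, updated with RefSeq symbols (TAIR10.1). SWEET5 and SWEET15 carry other symbols (AtVEX1 and SAG29) and are not members. Named were all SWEET genes, listed carriers that passed the time course, SUC2, GI and the 3 most similar courses. CWINV6, SFP1 and TMT3 were named after their values were seen. Listed symbols that matched an unrelated gene were not looked up (FDH and PLT5), and others, such as STP3 and PDF2, were not matched to a gene. All of them stay in the numbers of listed markers and carriers. Members, lists and tests were chosen with earlier results of these data known, and the steps between neighbouring hours were added last.

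Replicate numbers from the labels pair the arrays: deviations from the hourly means correlated between hours within each series for 55 of 55 pairs of hours (0.14 to 0.62, median 0.39). The number of arrays limits the precision, with 2 per hour. Alternatives were pseudocount, filter, scaling, block, array weights, trend, the number of harmonics, the hours of the age tags, and leaving out arrays.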

Additional observations from a re-analysis of the deposited data

How the results depend on the processing

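With the replicate block, 5 SWEET genes and 6160 probe sets passed the time course, 2306 probe sets were higher at 13 to 24 h, 4 SWEET calls were higher and 2 lower against 0 h (3850 and 2959 over all probe sets), and 8 SWEET calls were higher against 12 h (6403 higher and 6808 lower over all); beyond the calls named with it above and that of SWEET2 at 12 h over 8 h (0.79, adjusted p = 0.0401, against 0.603 without it), the block changed no other SWEET call. Without the 8 h and 16 h arrays, 1 SWEET gene was higher at 13 to 24 h (1016 probe sets higher and 1159 lower). The comparisons of 8 h with 0 h and of 16 h with 12 h cannot be made without these arrays. The remaining comparisons gave 1 SWEET call higher against 0 h (1298 over all) and 2 against 12 h. With all arrays these counts were 2 (1985 over all) and 4 (3564 over all), and the lower SWEET counts follow from the missing comparisons. Without the 3 arrays of highest actin ratio, 4 SWEET calls were higher against 0 h (940 lower over all), 1641 probe set calls were higher and 2095 lower against 12 h, and SWEET17 at 16 h over 12 h lost its call (adjusted p = 0.340). The difference of SWEET6 between the parts, never called, turned to 0.000405 without the 8 h and 16 h arrays and to 0.13 without those of highest actin ratio. The causes were not tested.

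Leaving out 1 array at a time gave 3 to 4 SWEET genes in the time course and in the rhythm. Over all probe sets 3235 to 3665 passed the time course and 4576 to 5016 the rhythm. Against 0 h, 1 to 5 SWEET calls were higher (1033 to 2082 higher and 676 to 1509 lower over all). Against 12 h, 2 to 7 SWEET calls were higher and 2 to 4 lower (2150 to 3753 and 2509 to 4148 over all). With 1 array left out, SWEET1 passed the time course without replicate 1 of 14 h (adjusted p = 0.0325) and the rhythm without replicate 2 of 24 h (0.0312), and SWEET4 the time course without replicate 1 of 2 h (0.0459) or replicate 1 (0.0348) or 2 (0.0239) of 4 h and the rhythm without replicate 2 of 13 h (0.0384). Shifts of these counts by over 1.5 times came from leaving out arrays of 0, 8 or 12 h. Uncalled differences between the parts turned sign for SWEET2 (−0.21 to 0.00289), SWEET3 (−0.00619 to 0.30), SWEET6 (−0.16 to 0.12) and SWEET11 (−0.20 to 0.0105). Arrays scaled to equal medians added SWEET1 to the time course (adjusted p = 0.0471) and the rhythm (0.0248). The peak of SWEET2 moved to 9.68 h with the hours of the age tags and to 9.96 h without the 8 h and 16 h arrays, and that of SWEET13 to 17.5 h without those of highest actin ratio. The 4 dim members lay near the brightest bacterial control, and the part of low intensity in their results was not tested.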

Other observations

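The number of genes that carry a SWEET number only as a synonym was 2. SAG29, which is SWEET15, a sucrose carrier known from senescing leaves and seeds, lay above 29.2 on 3 of the 22 arrays. These were 14 h, with 5.4 in series 2 and 29.9 in series 1, series 2 at 24 h, with 180.9 against 6.2 in series 1, and series 2 at 13 h, with 122.6 against 5.5 in series 1. The title of the 24 h array of series 2 marks it as a repeat, and its actin ratio was 4.15, while that of the 13 h array was 2.50. The senescence marker WRKY53, the 1 of 6 that was measured, ran from 36.7 to 202.4 over the arrays. SAG29 did not pass the time course (limma, adjusted p = 0.873). VEX1, which is SWEET5 and is known from pollen, stayed between 2.0 and 23.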
